A study of Arabidopsis thaliana with 6 samples.

Results

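The 9 genes described here are early response genes of Arabidopsis thaliana, chosen by gene identifier from the count table: TCH2, TCH3 and TCH4, ERF5 and ERF6, ZAT10 and ZAT12, and WRKY33 and WRKY40. They are 9 of the 33977 genes counted, and all 9 were among the 19297 genes with enough counts to be tested. The study compared ovules of PRP8Aa prp8bb plants with ovules of wild type plants, with 3 libraries in each group. PRP8 is the large central protein of the spliceosome, and PRP8A and PRP8B are the genes that encode it. The labels describe the PRP8Aa prp8bb group as ovules with T-DNA insertions, mixed from the genotypes PRP8A;prp8b and prp8a;prp8b. Both of these genotypes carry prp8b, and the sample titles, PRP8Aa prp8bb, name both the PRP8A and the prp8a allele. Which cells of an ovule carry prp8a is not stated here. Neither the shares of the mixed genotypes nor the strain is given in the sources used here. All plants were 6 weeks old and were grown at 22 °C with 16 h of light and 8 h of dark, without any stress treatment named in the labels. Ovules were dissected from flowers of stages 13 to 14, which hold a mature embryo sac.

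Early response genes are switched on within minutes when a plant is touched, wounded, chilled or attacked, and their transcripts are generally short-lived. The part that handling during dissection had in the levels given here was not tested. The TCH ("touch") genes were found because spraying or bending a plant raises their transcripts: TCH2 and TCH3 encode calmodulin-like calcium sensors, and TCH4 encodes a xyloglucan endotransglucosylase/hydrolase that remodels the cell wall. The others encode transcription factors, namely the ethylene response factors ERF5 and ERF6, the C2H2 zinc finger proteins ZAT10 and ZAT12, and the defence regulators WRKY33 and WRKY40. Such genes are often regulated through short promoter elements: the rapid stress response element CGCGTT, the W-box core TTGAC that WRKY proteins bind, and the GCC box GCCGCC that many ERF proteins bind.

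The 250 bases before the annotated start of 5 of the genes are shown 5′ to 3′ on the gene's strand, because they hold the promoter elements of the set in different combinations, or, for ERF6, none. They were read from the RefSeq TAIR10.1 genome, in which all 9 genes have the same start and end as in the deposited table. Capitals mark every match, on either strand, to these 3 elements or to the G-box, CACGTG. The windows are chr5:14999620-14999869 (minus strand) for TCH2, chr4:9754162-9754411 (minus strand) for ERF6, chr1:9649324-9649573 (minus strand) for ZAT10, chr5:24102564-24102813 (plus strand) for ZAT12 and chr2:16107985-16108234 (plus strand) for WRKY33.
TCH2: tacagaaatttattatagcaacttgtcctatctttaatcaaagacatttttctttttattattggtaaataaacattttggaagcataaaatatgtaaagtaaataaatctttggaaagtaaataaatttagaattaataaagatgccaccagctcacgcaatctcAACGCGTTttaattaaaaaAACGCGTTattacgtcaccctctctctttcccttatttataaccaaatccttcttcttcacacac
ERF6: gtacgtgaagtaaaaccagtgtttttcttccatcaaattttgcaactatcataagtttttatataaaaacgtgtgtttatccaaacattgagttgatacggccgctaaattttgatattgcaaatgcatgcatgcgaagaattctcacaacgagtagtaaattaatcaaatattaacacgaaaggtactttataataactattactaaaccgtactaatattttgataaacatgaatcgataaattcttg
ZAT10: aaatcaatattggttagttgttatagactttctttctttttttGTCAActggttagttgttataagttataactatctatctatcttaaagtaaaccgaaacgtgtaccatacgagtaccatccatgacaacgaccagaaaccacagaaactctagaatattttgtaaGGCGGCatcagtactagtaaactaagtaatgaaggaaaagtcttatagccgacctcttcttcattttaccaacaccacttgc
ZAT12: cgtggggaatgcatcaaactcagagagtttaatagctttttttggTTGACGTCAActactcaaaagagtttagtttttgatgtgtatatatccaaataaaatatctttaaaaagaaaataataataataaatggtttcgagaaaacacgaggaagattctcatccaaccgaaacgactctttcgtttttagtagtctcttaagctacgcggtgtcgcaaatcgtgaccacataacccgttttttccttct
WRKY33: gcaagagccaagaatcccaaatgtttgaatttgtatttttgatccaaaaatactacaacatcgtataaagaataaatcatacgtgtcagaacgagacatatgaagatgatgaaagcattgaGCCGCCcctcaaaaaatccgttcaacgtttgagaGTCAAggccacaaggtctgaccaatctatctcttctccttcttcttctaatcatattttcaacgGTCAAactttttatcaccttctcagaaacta

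CGCGTT was present in 1 of the 9 promoter windows, that of TCH2, and in 2.52% of all 32546 windows. In TCH2 its matches on the opposite strands overlapped and made the palindrome AACGCGTT at 2 places, from -84 to -77 and from -65 to -58 counted from the annotated start. That palindrome was looked for only after the TCH2 window was seen, so its counts describe this window and test nothing. It occurred in 77 windows of the genome, and TCH2 held the only window with 2 or more copies. TTGAC was present in 6 of the 9 windows, those of TCH4, ERF5, ZAT10, ZAT12, WRKY33 and WRKY40, and in 44.3% of all windows. ZAT12 held it on both strands side by side, from -205 to -196. GCCGCC was present in 2 of the 9 windows, those of ZAT10 and WRKY33, and in 1.90% of all windows, and CACGTG was present in 0 of the 9 and 5.90% of all. The windows of TCH3 and ERF6 held none of these letters. The TCH3 window lies before a start that these libraries hardly used, since each of the first 8 exon bins of TCH3 held 0 to 5 counts per library. The 250 bases before the first well-counted bin (chr2:17137815-17138064) held 1 match to TTGAC and none to the other elements.

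The libraries labelled PRP8Aa prp8bb held 11261844 to 12644525 gene counts and the wild type libraries 8497702 to 12460805. As the check of the targeted genes, the share of PRP8A exon bin counts in its last 8 of 24 bins, a boundary taken from an earlier look at these data, was 19.6% to 22.6% in the libraries labelled PRP8Aa prp8bb and 26.2% to 32.0% in wild type. For the last 9 of 25 bins of PRP8B the share was 32.0%, 6.71% and 18.1% in replicates 1, 2 and 3 labelled PRP8Aa prp8bb and 27.8% to 37.8% in wild type, so the library labelled PRP8Aa prp8bb replicate 1 lay within the wild type range. In wild type replicate 1, 77.6% of nonzero gene counts were even, against 47.7% to 48.6% in the other 5 libraries, and its ratio of bin to gene counts in single-bin genes was 0.516, against 1.01 to 1.03. Values without both of these libraries are given where they change a call of a gene named here. All 8 ovule markers were detected and 4 of them, STK, SHP2, EC1.1 and FIS2, fell in the libraries labelled PRP8Aa prp8bb. The other 4 did not pass: ANT and BEL1 had log2 fold changes of 0.32 and 0.13, INO and MYB98 of -0.39 and -1.05. The 8 markers summed to 278.4 to 287.9 CPM (counts scaled to a common library size), and to 305.8 to 367.3 CPM in wild type. The 6 pollen markers summed to 886.5, 330.7 and 665.6 CPM in replicates 1, 2 and 3 labelled PRP8Aa prp8bb and to 390.6 to 421.3 CPM in wild type. Of these, PPME1 and AT2G21480 rose (log2 fold changes 2.28 and 0.72). The 4 stamen markers summed to 11.7 to 16.7 CPM in the libraries labelled PRP8Aa prp8bb and 18.6 to 22.5 CPM in wild type, most of it from AP3 (log2 fold change -0.71, not passed), while PI rose (1.36). The 6 carpel markers summed to 97.8 to 114.4 CPM and to 84.7 to 95.9 CPM in wild type, and SPT rose (0.73). The 6 green tissue markers summed to 4719 to 6141 CPM and to 5885 to 6055 CPM in wild type, and RBCS2B fell (-1.36). Mitochondrial genes took 14.5% of the counts in PRP8Aa prp8bb replicate 2 and 2.43% to 6.53% in the other 5 libraries. The part of these features in the results below was not tested. In bulk ovules, fewer cells of a type and less RNA per cell cannot be told apart.

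The main comparison asked whether the early response genes differed between PRP8Aa prp8bb and wild type ovules. ERF6 rose, TCH3 fell, and the other 7 genes did not pass the test. The test was edgeR's quasi-likelihood test with Benjamini-Hochberg adjustment over all tested genes, with an adjusted p under 0.05 as the threshold. Among all tested genes 3.05% were called higher, 2.79% lower and 5.85% in either direction. At an unadjusted p under 0.05 there were 3 of the 9 genes, against 19% of all genes. All 3 libraries of one group lay beyond all 3 of the other for 3 of the 9 genes, 2 higher and 1 lower, against 25.4% of all genes. The median log2 fold change of the 9 genes was 0.14, against -0.01 over all tested genes, with 6 values above 0 and 3 below. Summed over the 9 genes, the level was 431.1, 452.4 and 456.5 CPM in the libraries labelled PRP8Aa prp8bb and 424.3, 498.2 and 444.4 CPM in wild type.

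**Figure D1:**
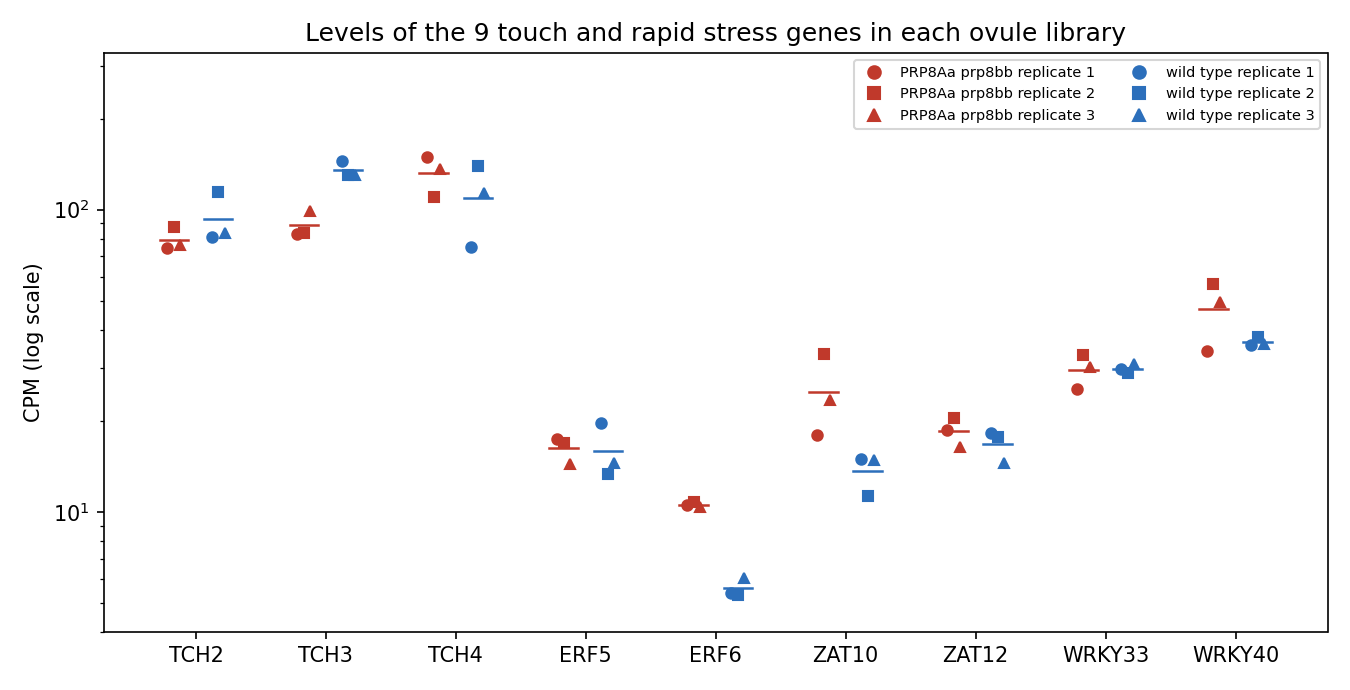
Level of each gene in CPM on a log axis, with PRP8Aa prp8bb libraries in red to the left of wild type libraries in blue. Symbols mark replicates and bars the group means (n = 3). ERF6 and ZAT10 have all PRP8Aa prp8bb points above wild type, TCH3 has all of them below, and the other 6 genes overlap.

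Among the touch genes, TCH3 (AT2G41100, chr2:17137037-17139700, plus strand, TAIR10) had 82.9, 83.7 and 99.2 CPM in the libraries labelled PRP8Aa prp8bb and 144.7, 129.9 and 130.5 CPM in wild type. Every library labelled PRP8Aa prp8bb lay below every wild type library. The means were 88.6 ± 9.18 and 135.0 ± 8.36 CPM (SD, n = 3 each), a log2 fold change of -0.61 (SE 0.11, 95% interval -0.84 to -0.37) with an adjusted p of 0.00864 in edgeR's quasi-likelihood test. TCH3 kept its call in each of 16 other settings, with log2 fold changes from -0.69 to -0.51 and adjusted p from 0.000103 to 0.0460 in the tools used there (edgeR, DESeq2 and limma-voom).

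TCH2 (AT5G37770, chr5:14997514-14999619, minus strand), the other calmodulin-like gene, had 74.4, 87.8 and 76.1 CPM in the libraries labelled PRP8Aa prp8bb and 81.0, 114.3 and 83.8 CPM in wild type. The groups overlapped, with wild type replicate 2 highest. The log2 fold change was -0.23 (SE 0.14, 95% interval -0.55 to 0.08) and did not pass, with an adjusted p of 0.421 in edgeR's test.

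The cell wall gene TCH4 (AT5G57560, chr5:23307006-23308680, minus strand) had 149.8, 109.9 and 136.8 CPM in the libraries labelled PRP8Aa prp8bb and 75.3, 139.7 and 113.7 CPM in wild type. The groups overlapped, and the lowest value belonged to wild type replicate 1. The log2 fold change was 0.27 (SE 0.22, 95% interval -0.24 to 0.78), with an adjusted p of 0.566 in edgeR's test. It was -0.04 without the 2 libraries in doubt.

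Of the ethylene response factors, ERF6 (AT4G17490, chr4:9752824-9754161, minus strand) had 10.5, 10.7 and 10.4 CPM in the libraries labelled PRP8Aa prp8bb and 5.38, 5.30 and 6.04 CPM in wild type. Both groups were tight and did not overlap. The means were 10.6 ± 0.174 and 5.57 ± 0.404 CPM (SD, n = 3 each), a 1.89-fold difference and a log2 fold change of 0.92 (SE 0.16, 95% interval 0.56 to 1.28), with an adjusted p of 0.00931 in edgeR's quasi-likelihood test. The raw counts behind these levels were 139, 106 and 118 in the libraries labelled PRP8Aa prp8bb and 46, 68 and 78 in wild type, where the 46 comes from replicate 1, whose gene counts look doubled. Its single exon bin held 23 counts in that library. Without PRP8Aa prp8bb replicate 3 the log2 fold change was 0.93 but the call was lost, with an adjusted p of 0.0548 in edgeR's test. Over 16 other settings its adjusted p ran from 0.00165 to that value.

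ERF5 (AT5G47230, chr5:19179881-19181182, plus strand), a close relative of ERF6, had 17.4, 16.8 and 14.4 CPM in the libraries labelled PRP8Aa prp8bb and 19.6, 13.3 and 14.5 CPM in wild type. Wild type held both the highest and the lowest value. For ERF5 the log2 fold change was 0.04 (SE 0.17, 95% interval -0.33 to 0.42), with an adjusted p of 0.924 in edgeR's test. The difference between the fold changes of ERF6 and ERF5 was not tested.

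ZAT10 (AT1G27730, chr1:9648021-9649323, minus strand), a zinc finger repressor in stress responses, had 17.9, 33.4 and 23.5 CPM in the libraries labelled PRP8Aa prp8bb and 15.0, 11.3 and 14.8 CPM in wild type. The groups did not overlap, but the PRP8Aa prp8bb libraries were spread widely, with replicate 2 highest. The means were 24.9 ± 7.82 and 13.7 ± 2.06 CPM (SD, n = 3 each). The log2 fold change of 0.86 (SE 0.22, 95% interval 0.35 to 1.37) did not pass, with an adjusted p of 0.0591 in edgeR's quasi-likelihood test. The call was made by DESeq2 (adjusted p = 0.00988), and by edgeR without a filter on low counts (0.0352), without PRP8Aa prp8bb replicate 1 (log2 fold change 1.06, adjusted p = 0.0162) and without both libraries in doubt (1.12, adjusted p = 0.0103). Over 16 other settings the adjusted p of ZAT10 in edgeR, DESeq2 and limma-voom ran from 0.00988 to 0.165.

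ZAT12 (AT5G59820, chr5:24102814-24103794, plus strand), a zinc finger regulator of responses to reactive oxygen and cold, had 18.6, 20.5 and 16.4 CPM in the libraries labelled PRP8Aa prp8bb and 18.2, 17.7 and 14.5 CPM in wild type. The groups overlapped, with 2 of the 3 libraries labelled PRP8Aa prp8bb above all of wild type and wild type replicate 3 the lowest. The log2 fold change was 0.14 (SE 0.14, 95% interval -0.18 to 0.46), with an adjusted p of 0.654 in edgeR's test.

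WRKY33 (AT2G38470, chr2:16108235-16110766, plus strand), which activates camalexin synthesis in defence, had 25.4, 32.9 and 30.2 CPM in the libraries labelled PRP8Aa prp8bb and 29.7, 28.9 and 30.7 CPM in wild type. The wild type libraries lay within the range of the libraries labelled PRP8Aa prp8bb. Its log2 fold change was -0.01 (SE 0.12, 95% interval -0.29 to 0.26), with an adjusted p of 0.970 in edgeR's test.

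WRKY40 (AT1G80840, chr1:30383561-30385499, plus strand), a repressor of defence genes, had 34.1, 56.7 and 49.6 CPM in the libraries labelled PRP8Aa prp8bb and 35.5, 37.7 and 35.8 CPM in wild type. PRP8Aa prp8bb replicates 2 and 3 lay above wild type and replicate 1 below it. The log2 fold change was 0.36 (SE 0.17, 95% interval -0.02 to 0.74), with an adjusted p of 0.286 in edgeR's quasi-likelihood test. Without PRP8Aa prp8bb replicate 1, WRKY40 passed (log2 fold change 0.55, adjusted p = 0.0277 in edgeR's test), and without both libraries in doubt the values were 0.53 and 0.0181. Over 16 other settings its adjusted p in edgeR, DESeq2 and limma-voom ran from 0.0181 to 0.607.

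**Figure D2:**
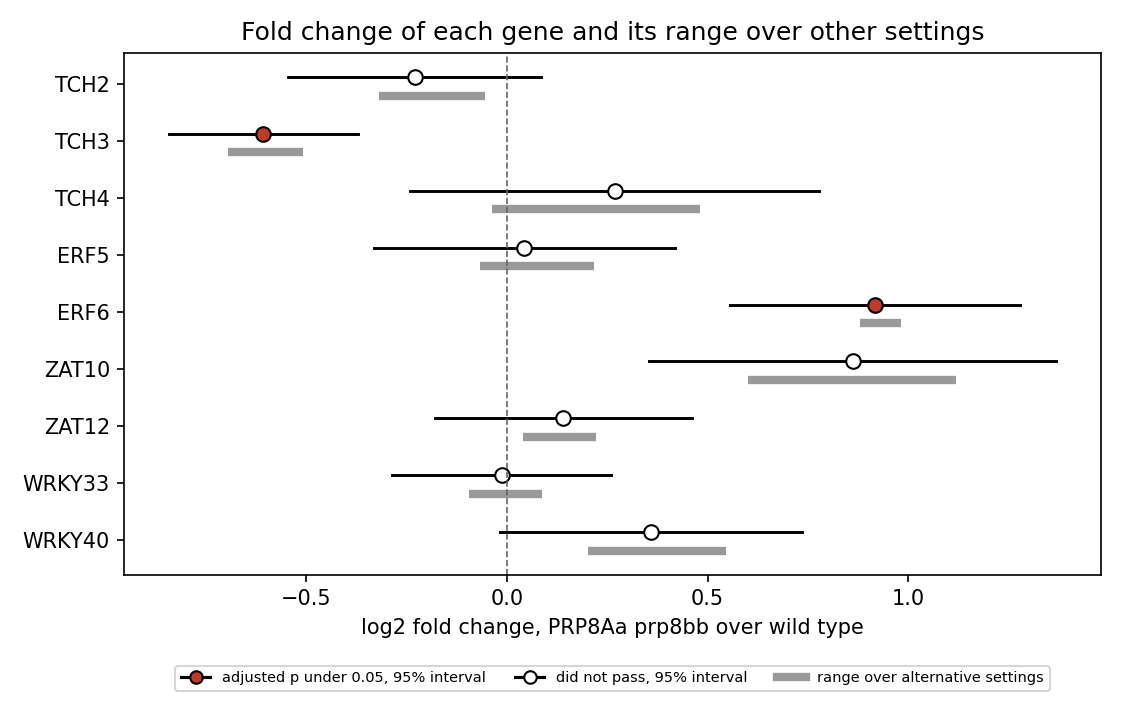
Log2 fold change of PRP8Aa prp8bb over wild type for each gene, with its 95% interval (points and lines, filled where the adjusted p was under 0.05). Grey bars span the values over the 16 other settings. The intervals of TCH3, ERF6 and ZAT10 exclude 0, and the grey bars of TCH4, ERF5 and WRKY33 cross it.

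ZAT10, ZAT12, WRKY33, WRKY40 and, by a small margin, ERF6 had their highest levels in PRP8Aa prp8bb replicate 2, the library with the largest mitochondrial share. The lowest PRP8Aa prp8bb levels of ZAT10, WRKY33 and WRKY40 were in replicate 1. TCH2 had the same order as ZAT10, WRKY33 and WRKY40 among the libraries labelled PRP8Aa prp8bb, but its highest level was in wild type. The summed pollen markers and TCH4 had the opposite order among these libraries, and TCH3, ERF5, ERF6 and ZAT12 had other orders. Without PRP8Aa prp8bb replicate 2 the log2 fold change was 0.60 for ZAT10 (adjusted p = 0.105 in edgeR's test) and 0.20 for WRKY40 (adjusted p = 0.607). ERF6 lay between 10.4 and 10.7 CPM in all 3 of these libraries. The authors' deposited table, which lists 1543 genes past their own threshold, holds 3 of the 9 genes, with log2 fold changes of -0.60 for TCH3, 0.92 for ERF6 and 0.87 for ZAT10. The adjusted p-values in the authors' deposited table were 9.32e-05 for TCH3, 0.00151 for ERF6 and 0.00991 for ZAT10.

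Per kilobase of annotated exon, the cell wall gene TCH4 had the highest level of the 9 in both groups, but this rank depended on exon sequence that these libraries hardly used. The mean RPKM (CPM per kilobase of exon) in the libraries labelled PRP8Aa prp8bb ran from 83.1 for TCH4 through 39.6 for TCH2, 35.3 for WRKY40, 34.8 for TCH3, 19.1 for ZAT10, 18.9 for ZAT12, 14.6 for WRKY33 and 12.4 for ERF5 to 7.89 for ERF6. In that order the ranges of TCH2 and WRKY40, WRKY40 and TCH3, ZAT10 and ZAT12, and WRKY33 and ERF5 overlapped. In wild type the order was TCH4 at 68.9, TCH3 at 53.0, TCH2 at 46.3, WRKY40 at 27.4, ZAT12 at 17.1, WRKY33 at 14.7, ERF5 at 12.2, ZAT10 at 10.5 and ERF6 at 4.16 RPKM. There the ranges of neighbours overlapped from TCH4 to TCH2 and from ZAT12 to ZAT10, and were apart elsewhere. By its mean RPKM over all libraries, TCH4 stood at percentile 94.4 of the tested genes, TCH3 at 89.3, TCH2 at 89.1, WRKY40 at 84.0 and ERF6 at 33.4. The annotated lengths of TCH2 and TCH3 include bins with under 5% of the gene's counts per base: 1 bin of TCH2, which leaves 910 of 2008 bases, and 7 of TCH3, which leave 1539 of 2548. Per kilobase without those bins, a length chosen after seeing the data, TCH2 had 87.3 CPM, TCH4 83.1 and TCH3 57.6 in the libraries labelled PRP8Aa prp8bb, where the ranges of TCH2 and TCH4 overlapped. In wild type TCH2 then had 102.2, TCH3 87.7 and TCH4 68.9 CPM per kilobase, and neighbours in this order overlapped. The other 6 genes kept their lengths and their order. The median SD of log2 CPM between replicates of the 9 genes was 0.161 in the libraries labelled PRP8Aa prp8bb and 0.181 in wild type, against 0.171 and 0.179 over all tested genes.

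The members' mean profile, as log2 CPM centred over the 6 libraries, was -0.01, 0.20 and 0.08 in the libraries labelled PRP8Aa prp8bb and -0.10, -0.07 and -0.11 in wild type. The genes closest to it were AT5G51300, AT5G41970, AT5G60930, CAF1 (AT2G20020) and AT5G08680, with root-mean-square differences of 0.0144 to 0.0220 over the 6 libraries. The 9 genes themselves differed from their own mean by 0.119 (WRKY33) to 0.413 (TCH3), so the mean stands for none of them closely. With 19297 tested genes over 6 libraries, such closeness describes these libraries only.

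The second comparison asked whether the use of exon bins within these genes differed, since PRP8 acts in splicing. ERF5, ERF6, ZAT10 and ZAT12 each have 1 exon bin and no annotated intron: 4 of the 9 genes, against 14.0% of 18260 tested genes with bins of their own. ERF6, the gene that rose, is thus unspliced in the annotation. The other 5 genes have 37 of the 41 bins, and 23 of these had enough counts to be tested. With edgeR's diffSpliceDGE and Benjamini-Hochberg adjustment, 0 of the 23 bins passed, against 0.00172% of the 116071 bins tested. In simulated data this test recovered 0% of 1.5-fold and 24.6% of 2-fold changes, so 0 calls do not show unchanged use. At an unadjusted p under 0.05 there was 1 of the 23, against 1.59% of all tested bins.

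That bin belongs to TCH3 (chr2:17138574-17138673, 100 bases). It is an intron in most annotated TCH3 transcripts and lies within an exon in 1 of 7. It held 50, 24 and 35 counts in the libraries labelled PRP8Aa prp8bb and 11, 42 and 22 in wild type. As a share of the bin counts of TCH3 this was 2.52%, 1.73% and 1.77% in the libraries labelled PRP8Aa prp8bb and 1.07%, 1.33% and 0.732% in wild type. The groups did not overlap, with higher shares in the libraries labelled PRP8Aa prp8bb. The usage log2 fold change was 0.67, and the adjusted p in edgeR's test was 0.999999.

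The next TCH3 intron bin upstream (chr2:17138207-17138306), which 3 of the 7 transcripts hold in an exon, took 2.46%, 1.37% and 1.32% of the gene's counts in the libraries labelled PRP8Aa prp8bb and 1.26%, 1.24% and 1.33% in wild type. These groups overlapped, and replicate 1 labelled PRP8Aa prp8bb was the highest. In TCH2 the bin after the one that holds its coding sequence (chr5:14998710-14998980) is an exon in 1 of 2 transcripts and is untranslated. It took 11.8%, 2.26% and 3.91% of the gene's counts in the libraries labelled PRP8Aa prp8bb and 5.71%, 9.65% and 9.75% in wild type. PRP8Aa prp8bb replicates 2 and 3 and wild type replicate 1 were low, and the groups overlapped. The usage log2 fold change was -0.38, with an adjusted p of 0.999999 in edgeR's test, and it was -1.16 with an adjusted p of 0.0281 when both libraries in doubt were left out.

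**Figure D3:**
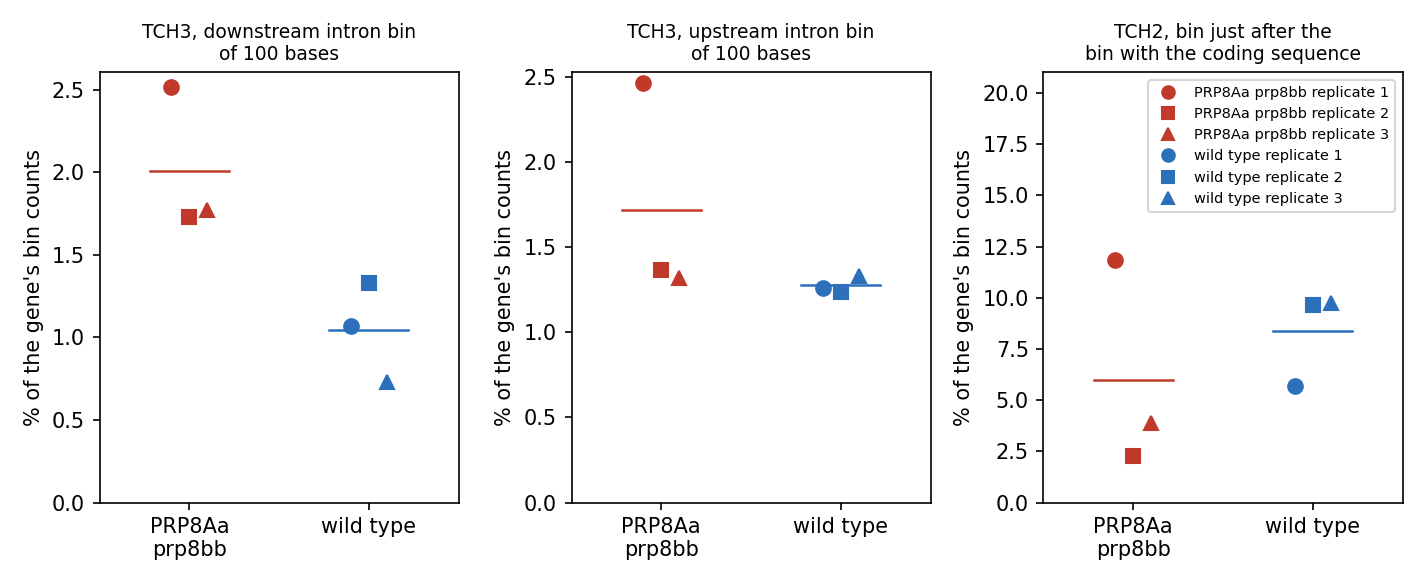
Share of a gene's exon bin counts, in percent, taken by the 3 bins of smallest p, with PRP8Aa prp8bb libraries left of wild type libraries in each panel. Bars are group means (n = 3). In the first panel the groups do not overlap, and in the TCH2 panel PRP8Aa prp8bb replicate 1 at 11.8% is the highest of the 6 libraries.

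A deposited intron table, which names no sample, lists 7 introns of the 9 genes, and no group can be given to its values. Across 71711 introns with at least 10 spliced reads the median retention ratio, the depth of an intron relative to the sum of that depth and its spliced reads, was 0.0173. The TCH4 intron of 85 bases had 246 spliced reads and a ratio of 0.0173. The second intron of WRKY33, of 69 bases, had 13 spliced reads, a mean depth of 12 and a ratio of 0.48, and 0.0837% of those introns had a ratio at least as large. That share leaves out every intron with fewer than 10 spliced reads. The next intron of WRKY33, of 90 bases, had 34 spliced reads and a ratio of 0.0556. Its introns of 249 and 96 bases had ratios of 0.00104 and 0.103, with 8 and 47 spliced reads. The WRKY40 introns of 410 and 95 bases had ratios of 0.00143 and 0.113. The introns of 249 and 410 bases had a depth of 0, so their deposited ratios do not follow from the definition above. The second and next introns of WRKY33 are shown to compare the one of high ratio with its neighbour. Capitals mark the first and last bases, which are GT and AG in both. They are chr2:16109175-16109243 and chr2:16109777-16109866, on the plus strand.
WRKY33 second intron: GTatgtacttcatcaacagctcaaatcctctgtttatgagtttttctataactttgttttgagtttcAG
WRKY33 next intron: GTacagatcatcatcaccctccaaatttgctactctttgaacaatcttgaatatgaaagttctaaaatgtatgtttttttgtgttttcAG

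Related genes of the same response were counted from lists of relatives, upstream regulators and downstream genes. Of 73 such genes 54 were tested, of which 2 rose, 3 fell and 49 did not pass. Over all tested genes 3.05% were called higher and 2.79% lower. The median log2 fold change of the 54 genes was -0.03, against -0.01 over all tested genes. Of 11 touch, calcium and cell wall genes 9 were tested, and 1 passed. XTH24, a cell wall enzyme of the TCH4 family, fell to 5.45, 5.17 and 4.85 CPM in the libraries labelled PRP8Aa prp8bb, against 29.9, 16.1 and 20.4 CPM in wild type. Its groups were far apart, with a log2 fold change of -2.09 (SE 0.23) and an adjusted p of 0.00108 in edgeR's test.

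Of 14 WRKY relatives 12 were tested, and 1 rose and 1 fell. WRKY11, a negative regulator of basal defence, had 39.3, 53.1 and 48.8 CPM in the libraries labelled PRP8Aa prp8bb and 31.8, 29.3 and 32.2 CPM in wild type, with a log2 fold change of 0.60 and an adjusted p of 0.0228 in edgeR's test. WRKY60, which acts together with WRKY40, had 9.38, 5.47 and 7.76 CPM in the libraries labelled PRP8Aa prp8bb and 15.7, 13.6 and 13.2 CPM in wild type. Its log2 fold change was -0.89, with an adjusted p of 0.0281 in edgeR's test. Neither pair of groups overlapped. Neither WRKY11 nor WRKY60 was called when PRP8Aa prp8bb replicate 2 or 3 or wild type replicate 2 or 3 was left out. At an unadjusted p under 0.05 there were 6 of the 12 WRKY relatives, against 19% of all tested genes.

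Of 6 cold and dehydration response factors 1 rose. DREB2A, which activates dehydration and heat response genes, had 17.5, 23.8 and 17.9 CPM in the libraries labelled PRP8Aa prp8bb and 8.06, 10.5 and 9.75 CPM in wild type. All PRP8Aa prp8bb libraries were above wild type, with a log2 fold change of 1.05 and an adjusted p of 0.00623 in edgeR's test. At an unadjusted p under 0.05 there were 3 of the 6 genes, against 19% of all tested genes. For CBF3, which activates cold response genes, the log2 fold change of 1.78 had an adjusted p of 0.101 in edgeR's test, and without both libraries in doubt CBF3 passed (2.58, adjusted p = 0.00262). Of 12 downstream genes 3 were tested and 1 fell: ACS2, an ethylene synthesis enzyme, had 6, 8 and 8 counts in the libraries labelled PRP8Aa prp8bb and 20, 26 and 26 in wild type. At these low counts the log2 fold change was -1.70, with an adjusted p of 0.0262 in edgeR's test, and the call was lost without PRP8Aa prp8bb replicate 1 or 3 or wild type replicate 2 or 3. Without both libraries in doubt it was -1.41 (adjusted p = 0.0599). The 20 counts of ACS2 come from wild type replicate 1, whose gene counts look doubled. NHL10, outside the main test at its low counts, had 0 counts in every library labelled PRP8Aa prp8bb and 18, 9 and 6 in wild type. The 18 counts also come from wild type replicate 1. DESeq2 called NHL10 lower (log2 fold change -6.04, adjusted p = 0.00156), as did edgeR without a filter on low counts (adjusted p = 0.00758).

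In 3 lists edgeR called 0 genes with all 6 libraries. Of 9 tested ERF relatives 1 had an unadjusted p under 0.05, against 19% of all tested genes, and DESeq2 and limma-voom also called 0. Of 3 tested C2H2 zinc finger relatives 0 had an unadjusted p under 0.05, and the same tools called 0. Of 12 tested kinases, CAMTA factors, RBOHD and other upstream regulators 2 had an unadjusted p under 0.05, DESeq2 called 1 and limma-voom 0. The gene DESeq2 called was RBOHD, an oxidase that makes reactive oxygen, with a log2 fold change of 0.67 and an adjusted p of 0.129 in edgeR's test. RBOHD passed in edgeR without PRP8Aa prp8bb replicate 1 (0.86, adjusted p = 0.0212) and without both libraries in doubt (0.73, adjusted p = 0.00928). MPK3, a kinase of the pathway, had a log2 fold change of -0.04, and CAMTA3, a calmodulin-binding factor of rapid stress expression, one of -0.03. CBF3, NHL10, RBOHD, MPK3 and CAMTA3 were chosen after their values were seen.

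**Figure D4:**
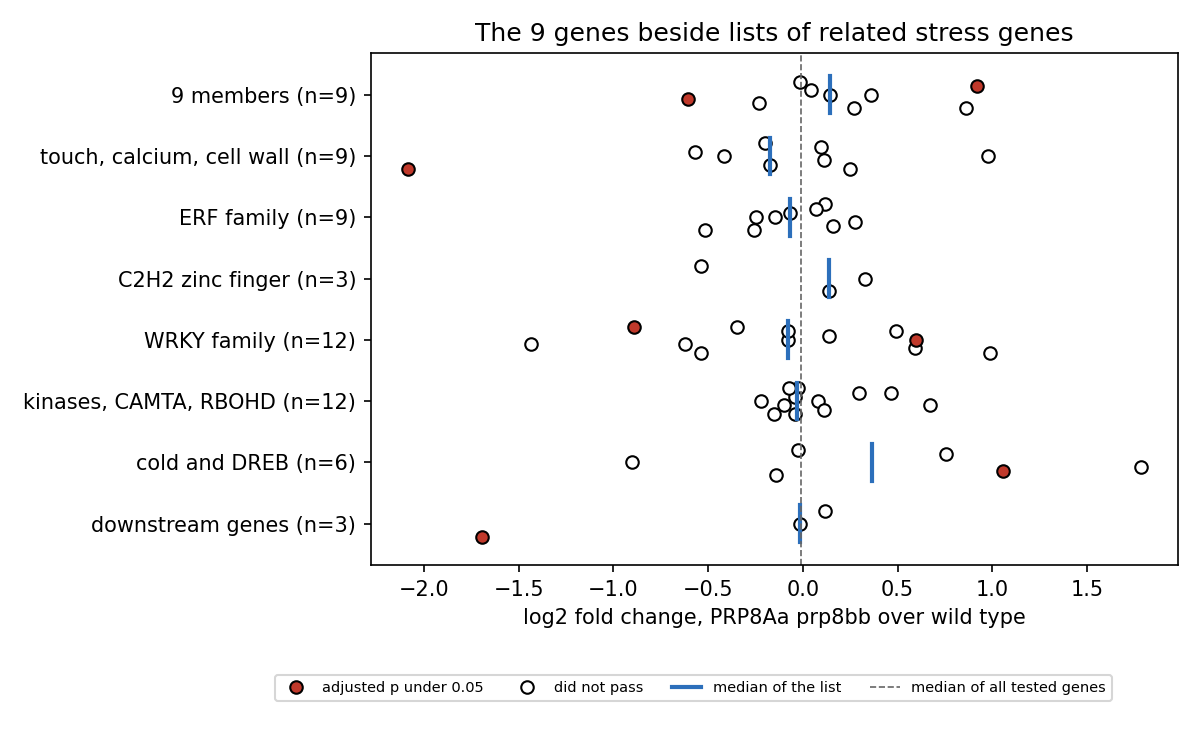
Log2 fold change of PRP8Aa prp8bb over wild type for each tested gene of the 9 and of 7 related lists (points, filled where the adjusted p was under 0.05), with list medians in blue and the median of all tested genes dashed. Most points lie near 0, and XTH24 at -2.09 is the farthest to the left.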

How the data were processed

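Libraries were stranded and made from total RNA after removal of ribosomal RNA, per the labels' protocols. The submitters' processing notes name Trimmomatic, STAR, featureCounts (Subread 1.6.0), DESeq2 and the genome build TAIR10. Fragments were counted per gene and per exon bin by the authors, per the file headers, with strand setting 1 on annotation release 37. The deposited values are whole-number counts that were not normalized, and a fragment counts in every bin it overlaps. The authors' deposited table gives log2 fold changes, a mean normalised signal, a test score and p-values. A deposited intron table without headers, in the column layout of IRFinder, gives a depth (signal), a count of spliced reads and the retention ratio, a fraction. Its values came with no sample name.

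Gene counts were tested with edgeR 4.0.16 (quasi-likelihood, robust, TMM factors, filterByExpr) in R 4.3.3, and exon bins with its diffSpliceDGE on bins of at least 10 counts in at least 3 libraries. DESeq2 1.42.0 and limma-voom (limma 3.58.1) were alternatives. CPM values use TMM-scaled library sizes. Each standard error was derived from the F statistic as the size of the log2 fold change divided by its root, and the biological coefficient of variation was 14.9%. Both tests were run on simulated data with known changes of 1.5-, 2- and 4-fold. The gene test recovered 27.7%, 76.9% and 98.5% of these, and the bin test 0%, 24.6% and 90.6%. Samples were grouped by title. The labels call the replicates biological without naming separate plants. The p-values therefore reflect library-to-library spread, part of which may be technical. Every pair of replicates differed by more than sampling noise (chi-square per gene 5.06 to 89.4). Gene names were matched by identifier to RefSeq TAIR10.1 for 32548 genes, with identical coordinates for 99.95%, and 98.8% of 118268 deposited introns begin with GT and end with AG there.

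The members and lists were chosen with earlier results of these data known. All 9 genes were named. From each related list up to 4 genes past the threshold were named, as were the 5 genes of most similar profile and the 3 member bins of smallest p. Python 3.11.15, numpy 2.4.6, pandas 2.3.3 and matplotlib 3.10.9 made the other tables and figures.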

Additional observations from a re-analysis of the deposited data

How the results depend on the processing

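The number of the 9 genes called higher was 1, and it was 2 with DESeq2 and 2 without a filter on low counts. It ranged from 0 (without PRP8Aa prp8bb replicate 3) to 3 (without PRP8Aa prp8bb replicate 1) when 1 library was left out, and was 3 without both libraries in doubt, an alternative chosen after seeing the data. The number called lower was 1 in every setting run. Over all genes, leaving out 1 library gave 250 to 692 higher calls and 181 to 707 lower calls, with the lowest counts without PRP8Aa prp8bb replicate 3 and the next lowest, 257 and 198, without wild type replicate 3. Leaving out both libraries in doubt gave 1200 and 1093. The exon bins of the 9 genes had 0 calls, and 1 without both libraries in doubt, that of TCH2. Log2 fold changes near 0 changed sign. ERF5 ranged from -0.067 to 0.22 over the fits that leave out 1 library, and was below 0 without PRP8Aa prp8bb replicate 1 (-0.012) and without wild type replicate 2 or 3 (-0.067 and -0.015). WRKY33 ranged from -0.095 to 0.086 over those fits, was above 0 without PRP8Aa prp8bb replicate 1 or wild type replicate 3 (0.010), and was 0.084 without both libraries in doubt. TCH4 was -0.038 without both libraries in doubt. The causes were not tested.

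Correlations of deviations from the group means were -0.05, -0.05 and 0.10 for libraries of the same replicate number. For libraries of different numbers they ran from -0.12 to 0.11. With 3 libraries in each group, these values cannot decide whether libraries of the same number shared a batch. With the replicate block, 463 genes rose and 423 fell, against 589 and 539 without it. In that fit the log2 fold change was -0.61 for TCH3 (adjusted p = 0.0260 in edgeR's test), 0.92 for ERF6 (0.0314) and 0.84 for ZAT10 (0.143), and 0 member bins were called. Among the related genes, WRKY11 (0.59, adjusted p = 0.0527) and ACS2 (-1.69, adjusted p = 0.0712) were not called with the block, and RBOHD was (0.65, adjusted p = 0.0215).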
